A study of Mus musculus with 6 samples.

Results

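The Kcnq1 imprinted domain of distal mouse chromosome 7 was examined as 8 genes, Kcnq1ot1, Kcnq1, Cdkn1c, Phlda2, Slc22a18, Ascl2, Tssc4 and Nap1l4. Its cytosines were those listed in all 6 libraries inside a gene or within 1 kb of its ends, which gave 822 of 2210988 cytosines in all. The genes lie between bases 142966822 and 143549882 of chromosome 7 (GRCm38), a span of 583 kb. DNA of male germ cells was profiled by reduced representation bisulfite sequencing, in which bisulfite turns unmethylated cytosine into a base read as T, so the percent of reads that still show C is the methylation level. The groups were 3 libraries of mice exposed to chronic social defeat stress (CSDS), in which an animal is repeatedly attacked by an aggressor, and 3 Control libraries. Strain, genotype, age, the timing of the stress and the way the germ cells were isolated are not given in the sources used here. The labels do not say that replicates came from separate animals, so p-values measure only the spread between these samples.

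Genomic imprinting marks one parental copy of a gene by DNA methylation set in the germ line. In the Kcnq1 domain the mark is set in the oocyte at a control region inside an intron of Kcnq1. On the paternal copy, where the control region is unmethylated, it drives Kcnq1ot1, a long noncoding RNA transcribed against Kcnq1, and neighbouring genes on that copy are silenced, several of them in the placenta alone. Male germ cells that carry the paternal state therefore have an unmethylated control region.

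The promoter sequences below, from RefSeq with build GRCm38.p6, are shown for CCGG at Ascl2 and Tssc4, whose levels are compared by these letters, and for the CCAAT boxes of Kcnq1ot1, where no level was measured. Of the 8 genes, 5 (Ascl2, Tssc4, Kcnq1ot1, Slc22a18 and Phlda2) were matched in the table of promoters. Each stretch is the 250 bases before the start used in that table, 5′ to 3′ on the strand of the gene. For Tssc4 (start 143069368) and Phlda2 (start 143502524) that start, and the whole stretch before it, lie inside the gene bounds given below, which come from another table. Capitals mark CCGG in the promoters of Ascl2 (chr7:142969265-142969514, minus strand) and Tssc4 (chr7:143069118-143069367, plus strand). Capitals mark CCAAT in that of Kcnq1ot1 (chr7:143296548-143296797, minus strand).
Ascl2: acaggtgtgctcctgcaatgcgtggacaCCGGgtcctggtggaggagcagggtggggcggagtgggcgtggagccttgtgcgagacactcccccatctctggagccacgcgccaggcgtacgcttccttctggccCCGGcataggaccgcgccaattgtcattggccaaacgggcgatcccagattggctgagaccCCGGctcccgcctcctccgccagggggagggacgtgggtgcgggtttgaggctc
Tssc4: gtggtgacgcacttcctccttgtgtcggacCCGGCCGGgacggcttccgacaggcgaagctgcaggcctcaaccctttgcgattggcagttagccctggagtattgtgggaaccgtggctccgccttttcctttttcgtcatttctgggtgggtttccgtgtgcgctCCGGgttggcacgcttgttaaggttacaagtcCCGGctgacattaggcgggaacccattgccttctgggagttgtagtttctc
Kcnq1ot1: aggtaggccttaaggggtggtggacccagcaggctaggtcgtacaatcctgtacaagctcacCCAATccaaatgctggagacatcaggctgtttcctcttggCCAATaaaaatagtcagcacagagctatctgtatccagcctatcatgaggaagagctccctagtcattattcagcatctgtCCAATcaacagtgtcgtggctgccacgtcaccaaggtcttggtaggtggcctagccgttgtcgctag
CCGG is the sequence cut by MspI, the enzyme usually used for this kind of library. Every CpG of the printed Ascl2 and Tssc4 stretches, 19 and 17, was measured in all libraries on at least 1 strand, and none of the 5 CpGs of the Kcnq1ot1 stretch was. CCAAT, counted on both strands (as CCAAT or ATTGG), occurred 3 times in the Kcnq1ot1 stretch, 3 times in that of Ascl2 and once or not at all in the other 3. It was in 33.8% of 32851 promoters of this length, and in 2.79% at least 3 times. TGCCGC, the unmethylated letters of the motif of the imprint protector ZFP57, was on neither strand in these 5 stretches and in 8.68% of all promoters.

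Each library listed between 2420308 and 3156788 cytosines at a median coverage of 44 to 50 reads, and the member regions held between 1572 reads per library (Slc22a18) and 16381 (Kcnq1). Libraries stood apart in a way that crosses the groups. At 27 mitochondrial CpG cytosines, in DNA taken to be largely unmethylated, the median read as C was 8.50%, 4.41% and 4.53% in CSDS replicates 1, 2 and 3, against 8.90%, 8.84% and 10.04% in Control replicates 1, 2 and 3. CSDS replicates 2 and 3 were thus low, and CSDS replicate 1 lay beside the Control libraries. This share moved with most of the differences below. Its part in them was not tested, and the difference of each gene and control region is also given after every library was corrected by its own share. For the genes and the Kcnq1ot1 control region it is given for CSDS replicate 1 alone as well.

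The Kcnq1ot1 control region was mostly unmethylated in both groups. The measured cytosines ran from base 143295375 to 143295618, which is 929 to 1172 bp downstream of the Kcnq1ot1 start and inside an intron of Kcnq1 by the usual annotation. The 35 cytosines, 17 on the plus strand and 18 on the minus strand, belong to 18 CpGs and carried 1980 to 2963 reads per library. Their mean level was 16.7%, 14.2% and 12.5% in CSDS replicates 1, 2 and 3, against 17.2%, 16.8% and 16.3% in the Control replicates. CSDS replicate 1 lay within the Control values and the other CSDS libraries below them, so the groups overlapped. The means were 14.5% ± 2.09 in CSDS and 16.8% ± 0.428 in Control (SD, n = 3 each), a difference of −2.30 points. Without the high cytosine at base 143295376, described next, they were 12.02% ± 2.10 in CSDS and 14.3% ± 0.440 in Control (SD, n = 3 each). With all 35, the exact two-sided permutation p was 0.2, where 3 against 3 libraries cannot go below 0.1. After the mitochondrial correction the levels were 9.19% ± 0.957 in CSDS and 8.28% ± 1.13 in Control (SD, n = 3 each), which turned the difference to +0.915 points (exact permutation p = 0.5). For CSDS replicate 1 by itself the difference was −0.0925 points.

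Single cytosines inside the control region were not evenly low. On average over the libraries, 30 of the 35 lay under 20%, between 4.18% and 17.2%. The minus-strand cytosine at base 143295376 read 100%, 97.1% and 96.6% in CSDS and 100% in each Control library, while its partner on the plus strand read 16.0%, 14.1% and 3.23% in CSDS and 17.5%, 9.84% and 11.1% in Control. The other 4 belong to 2 neighbouring CpGs that, with both strands averaged, stood above the CpGs next to them in every library. By these averages the CpG at bases 143295442 and 143295443 was at 35.1%, 24.8% and 33.8% in CSDS, against 29.4%, 34.6% and 40.1% in Control. For the CpG at bases 143295469 and 143295470 the levels were 46.6%, 36.5% and 31.3% in CSDS, against 39.6%, 50.6% and 36.5% in Control. The groups overlapped at both CpGs, with differences of −3.48 and −4.10 points.

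Of the 35 cytosines, 24 were lower and 11 higher in CSDS on average, where 68.6% of 2182877 cytosines tested in the whole series were lower. At 1 of the 35 every CSDS library lay below every Control library, against 10.6% of all. The quasi-binomial F test compares counts of methylated and unmethylated reads, with a dispersion moderated over all cytosines. A cytosine was called where the groups differed by 10 points or more and this test gave an adjusted p below 0.05. None of the 35 was called, against 0 of 2182877 (0%), and limma also called 0. The lowest adjusted p by the F test was 0.392, and 3 of the 35 had an unadjusted p under 0.05, against 10.8%. Along the stretch the libraries changed places. The first 100 bases, a division made after the values were seen, held 15 cytosines besides the one at base 143295376, at 23.1%, 13.5% and 11.8% in CSDS against 16.6%, 19.8% and 16.6% in Control. The remaining 19 cytosines were at 7.22%, 10.4% and 8.68% in CSDS against 13.3%, 10.2% and 11.7% in Control. CSDS replicate 1 was thus the highest of the 6 libraries over the first part and the lowest over the second. Fixed tiles of 500 bp divide the stretch at base 143295500. The 17 cytosines from there on stood at 6.42%, 10.2% and 8.14% in CSDS against 13.8%, 10.65% and 11.8% in Control. There the groups were apart, as in 15.7% of all tiles, by −3.83 points (quasi-binomial F test unadjusted p = 0.0302, adjusted p = 0.265). Corrected by the mitochondrial share it was −0.583. The 18 before that base differed by −0.861 points with overlap.

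**Figure D1:**
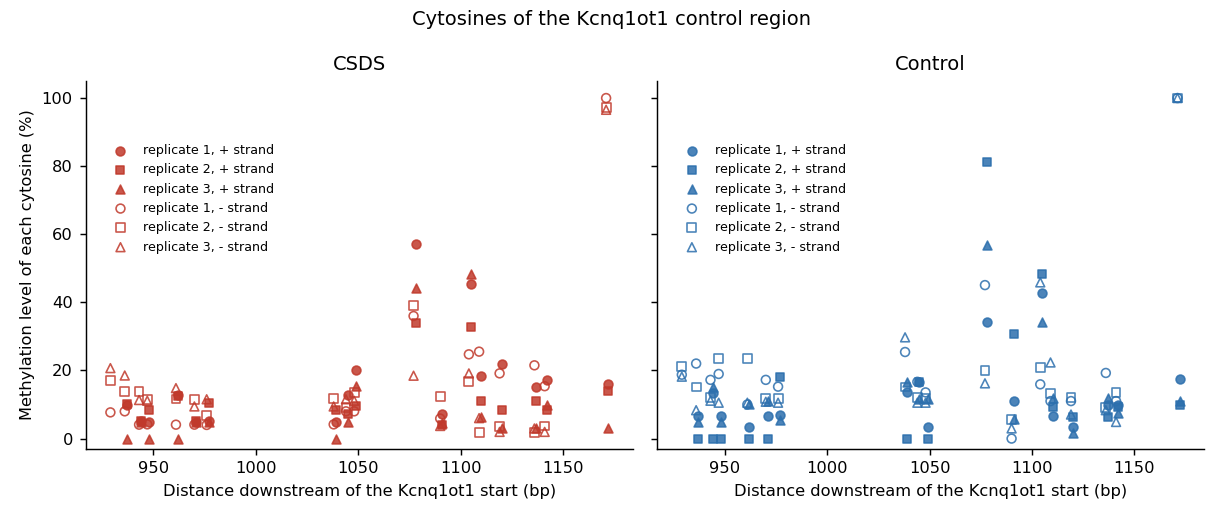
Methylation level of each cytosine of the Kcnq1ot1 control region (vertical axis, percent) by its distance downstream of the Kcnq1ot1 start (horizontal axis, bp), for the 3 CSDS libraries and the 3 Control libraries, with filled symbols for the plus strand and open symbols for the minus strand. In every library most points lie under 20%, and the minus-strand cytosine farthest from the start lies at 96.6% or above. The CpGs 1078 and 1105 bp from the start stand above their neighbours once both strands are averaged, though not on each strand in every library.

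A high cytosine beside a low partner was seen elsewhere too. In the whole series, 906052 CpGs had both strands listed, and at 8.05% of them the strands differed by more than 50 points on average. Where a promoter sequence shows the letters, 9671 of 19922 CpGs inside CCGG (48.5%) had such a gap, and 0 of 92552 CpGs outside CCGG had one. In the domain 31 of 339 such CpGs (9.14%) had the gap, and at these the higher strand averaged 65.9% or more and the lower strand 19.8% or less. The letters are known for 43 of the 339, those in a promoter sequence. Only 1 of the 31 is among them, and it is inside CCGG (Tssc4, bases 143069149 and 143069150). Its plus strand read 100% in each CSDS library against 100%, 92.86% and 100% in Control, and its minus strand 21.95%, 11.1% and 0% in CSDS against 8%, 4.88% and 0% in Control.

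**Figure D2:**
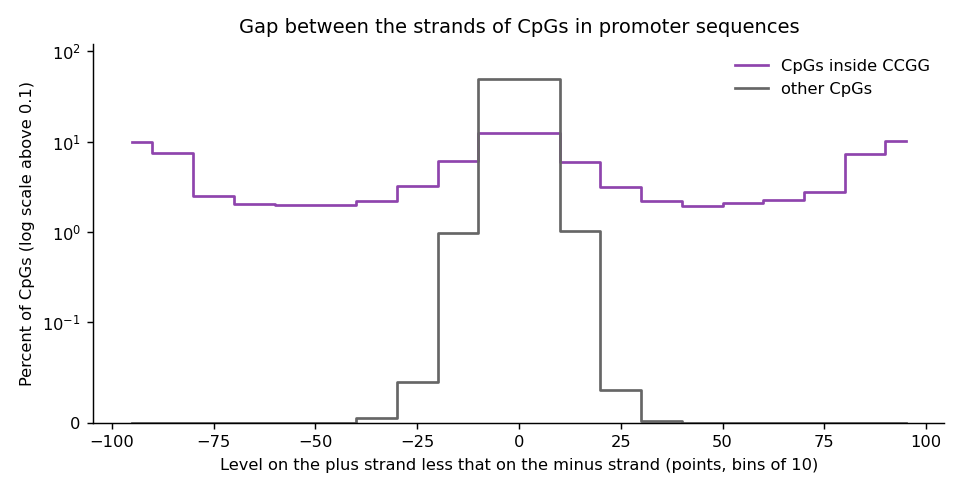
Difference between the level on the plus strand and that on the minus strand (horizontal axis, points, mean of the 6 libraries) as the percent of CpGs in promoter sequences (vertical axis, logarithmic above 0.1), for CpGs inside CCGG and for other CpGs. CpGs inside CCGG fill both ends of the axis, and none of the 92552 other CpGs lies beyond 50 points.

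In the promoter sequences of the member regions, intermediate levels lay inside CCGG. These sequences held 86 cytosines with both strands listed. The 12 inside CCGG averaged 32.3% ± 2.24 in CSDS and 36.7% ± 1.32 in Control, and the 74 outside CCGG averaged 4.81% ± 2.52 in CSDS and 9.23% ± 0.375 in Control (SD, n = 3 each). Of the 12, 8 lay between 20% and 80% and 1 above 80%, while 0 of the 74 lay at 20% or above. Over all promoters the cytosines outside CCGG were at 8.04%, 3.79% and 4.13% in CSDS and 8.61%, 8.92% and 8.51% in Control, so that CSDS replicates 2 and 3 were again the low libraries. The levels of the mostly unmethylated genes are also given without the higher cytosine of each CpG whose strands differ by more than 50 points. Whether the high cytosine and the intermediate CpGs of the control region lie in CCGG was not tested, since no promoter sequence covers them.

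The 41 cytosines of Kcnq1ot1 are also among the 277 of Kcnq1, so these members are not separate, and Kcnq1 without them differed by −1.20 points. Across the 8 genes with 1 kb at each end, all 8 means were lower in CSDS, where 89.3% of 28737 gene regions were. None was called, against 0 of 28737 (0%). Without CSDS replicate 1, 150 gene regions were called, 149 of them lower in CSDS and none a member, since no member then differed by 10 points. At an adjusted p under 0.05 alone, 7 of 8 members passed the F test without that library, against 43.5% of all regions. The adjusted p of these 7 ran from 0.00179 (Cdkn1c) to 0.0148 (Nap1l4), and that of Slc22a18 was 0.855. With each of the other 5 libraries left out instead, 0 of 28737 regions passed. An unadjusted p under 0.05 by the quasi-binomial F test was reached by 4 of 8, against 30.7% of all regions. Every CSDS library lay below every Control library in 2 of 8, against 31.0%, and above in 0 of 8, against 0.602%. The median difference was −3.35 points over the members and −2.66 points over all gene regions. After the mitochondrial correction 6 of 8 were lower in CSDS, against 63.0%, and the groups overlapped in all 8, where they stood apart in 9.14% (CSDS below) and 2.98% (CSDS above) of all regions. The median difference was then −0.158 points over the members and −0.422 points over all regions. limma on log2 of methylated over unmethylated reads called 0 regions, and its lowest adjusted p among the members was 0.189 (Tssc4).

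**Figure D3:**
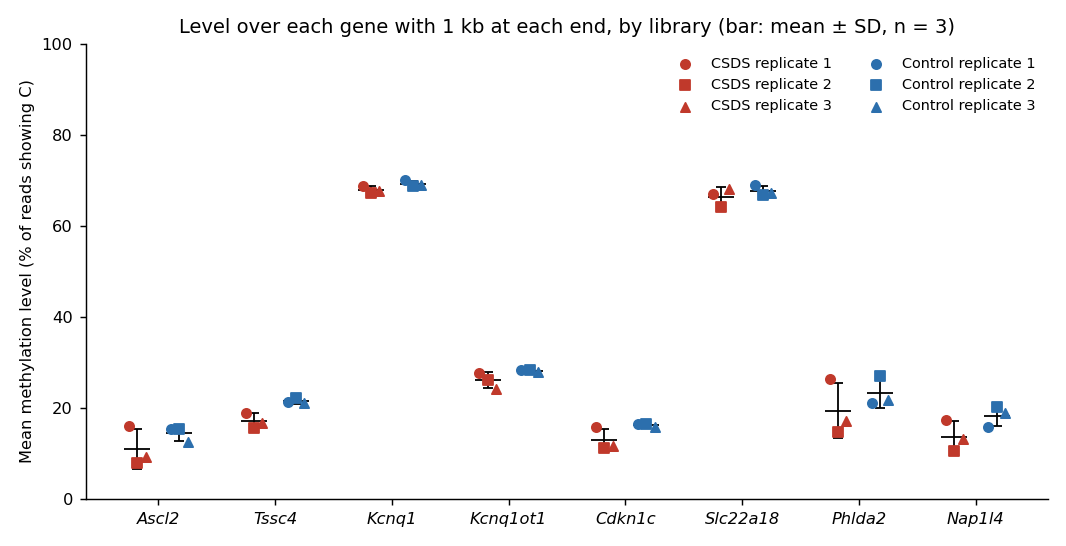
Mean methylation level (vertical axis, percent of reads showing C) of each gene with 1 kb at each end, ordered along the chromosome, for the 3 CSDS libraries (left of each pair) and the 3 Control libraries (right), with mean ± SD. Kcnq1 and Slc22a18 lie between 64.2% and 70.1% in all libraries and the other genes under 30%.

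Kcnq1ot1, the noncoding RNA itself (chromosome 7, 143213111 to 143296547), was measured at 41 cytosines, 35 of them in the control region. Its region stood at 27.8%, 26.1% and 24.3% in CSDS, against 28.4%, 28.2% and 27.8% in Control. The CSDS libraries all lay below the Control libraries, though the nearest pair, CSDS replicate 1 at 27.78% and Control replicate 3 at 27.81%, nearly touched. The difference was −2.12 points (quasi-binomial F test adjusted p = 0.194), +0.650 after the mitochondrial correction, −0.371 for CSDS replicate 1 alone and −4.91 with reads summed over cytosines. Without its strand-discordant cytosine the levels were 24.2% in CSDS and 26.4% in Control. The 6 cytosines outside the control region were at 93.5% ± 1.53 in CSDS and 94.5% ± 0.384 in Control (SD, n = 3 each).

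Kcnq1, which encodes the pore subunit of a voltage-gated potassium channel (143106877 to 143427050), was methylated at most of its 277 measured cytosines, with short low stretches. Its region stood at 68.8%, 67.2% and 67.7% in CSDS against 70.1%, 68.8% and 68.95% in Control, with CSDS replicate 1 among the Control libraries. The difference was −1.34 points (quasi-binomial F test adjusted p = 0.128), −0.175 after the mitochondrial correction, −0.438 for CSDS replicate 1 alone and −6.60 with reads summed. The last rests on the reads as well as on the levels. The share of the gene's reads that fell on cytosines under 20% was 33.0%, 36.9% and 31.6% in CSDS against 27.5%, 26.9% and 29.0% in Control. The F test works on summed reads and so carries this shift.

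Split into stretches of cytosines with gaps of up to 300 bp, Kcnq1 held 34, of which 31 were over 80% and 3 under 20%. One of the 3 is the control region. Another is the lower end of the gene, where 46 cytosines stood at 13.9%, 10.4% and 9.94% in CSDS and 14.5%, 13.1% and 13.7% in Control. The third is a short stretch of 6 cytosines within the gene (143154852 to 143154896) at 11.4%, 5.52% and 5.21% in CSDS and 10.3%, 5.92% and 6.37% in Control, a difference of −0.135 points. The interior as a whole, 230 cytosines, stood at 79.7%, 78.5% and 79.2% in CSDS against 81.1%, 79.8% and 79.9% in Control. There the CSDS libraries all lay below the Control libraries, by −1.13 points on average (exact permutation p = 0.1, the smallest that this design allows). These 230 include the 41 cytosines of Kcnq1ot1 and the 6 of the short low stretch. The interior was not taken through the mitochondrial correction, after which the whole gene differed by −0.175 points with the groups overlapping.

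**Figure D4:**
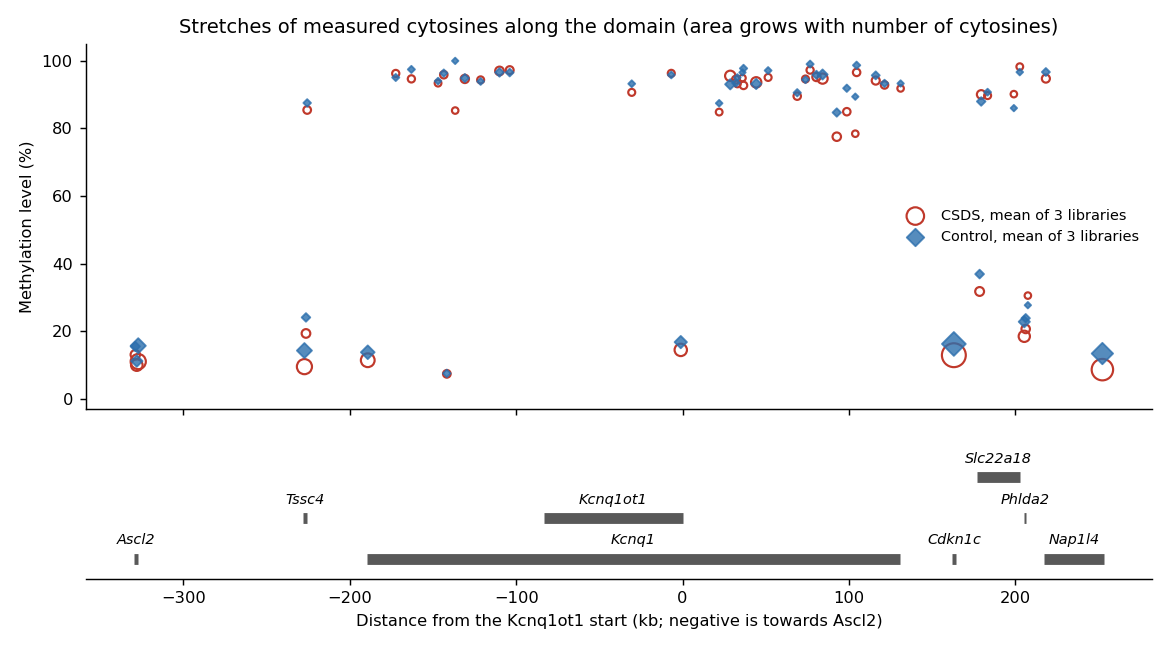
Mean level of each stretch of measured cytosines (vertical axis, percent, gaps of up to 300 bp) by its distance from the Kcnq1ot1 start (horizontal axis, kb), as open circles for CSDS and diamonds for Control, each the mean of 3 libraries, with the 8 genes drawn to scale below. Stretches under 20% lie at Ascl2, Tssc4, the lower end of Kcnq1, a short stretch within Kcnq1, the control region, Cdkn1c and the upper end of Nap1l4, and most stretches between them are over 80%.

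Among the genes silenced on the paternal copy, Cdkn1c encodes p57, an inhibitor of cyclin-dependent kinases that restrains growth. It lies at 143458339 to 143461059, 163 kb from the control region, and was covered by 163 cytosines in 1 unbroken stretch. Its levels were 15.9%, 11.3% and 11.6% in CSDS against 16.5%, 16.4% and 15.8% in Control. CSDS replicate 1 again fell among the Control libraries. The means were 12.9% ± 2.57 in CSDS and 16.2% ± 0.401 in Control (SD, n = 3 each), a difference of −3.33 points (quasi-binomial F test adjusted p = 0.132) that was −0.142 after the mitochondrial correction and −0.371 for CSDS replicate 1 alone. Without the higher cytosine of each strand-discordant CpG, 10 of the 163, the levels were 8.12% in CSDS and 11.4% in Control. The lower end, the interior and the upper end differed by −3.61, −3.02 and −3.69 points, with overlap in each.

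Phlda2, a pleckstrin-homology protein that limits placental growth (143501545 to 143503145), varied most among libraries of 1 group. The 38 cytosines stood at 26.3%, 14.7% and 17.1% in CSDS against 21.1%, 26.9% and 21.6% in Control. The highest CSDS library exceeded all but 1 Control library. The difference was −3.82 points (quasi-binomial F test adjusted p = 0.286), −0.879 after the mitochondrial correction, and +3.09 points for CSDS replicate 1 alone. With the higher cytosine of each of 6 strand-discordant CpGs left out, the level was 7.61% in CSDS and 10.1% in Control, and the difference was −2.49 points. None of the 21 CpGs in the 250 bases before the start in the promoter table was measured in all libraries.

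Slc22a18, a transporter-like membrane protein (143473726 to 143499334), was the other mostly methylated gene. Its 29 cytosines stood at 67.1%, 64.2% and 68.2% in CSDS against 68.9%, 66.8% and 67.3% in Control, with the groups interleaved. The difference was −1.20 points (quasi-binomial F test adjusted p = 0.982), −0.0692 with reads summed, +0.0311 after the mitochondrial correction and −0.595 for CSDS replicate 1 alone. The 250 bases before its start in the promoter table hold no CpG, and no cytosine was measured within 1 kb of its lower end. A stretch of 12 cytosines at 143475057 to 143475228 was lower than the rest of the gene, at 32.7%, 28.5% and 34.0% in CSDS against 37.8%, 37.6% and 35.3% in Control. There each CSDS library lay below each Control library, with a difference of −5.15 points. This stretch holds strand-discordant CpGs. That at 143475057 averaged 9.05% on the plus and 96.9% on the minus strand, and that at 143475227 averaged 99.2% and 8.85%. Without strand-discordant cytosines the levels of the gene were 64.2% in CSDS and 65.4% in Control. The next stretch, 11 cytosines at 143475961 to 143476226, differed by +2.07 points with overlap.

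Ascl2, a transcription factor needed for the placental spongiotrophoblast (142966822 to 142969264), lies 326 kb from the control region at the other end of the domain. Over 103 cytosines it stood at 16.0%, 7.82% and 9.26% in CSDS against 15.4%, 15.4% and 12.4% in Control. CSDS replicate 1 was the highest of the 6 libraries. The difference was −3.37 points (quasi-binomial F test adjusted p = 0.211), −0.0695 after the mitochondrial correction, and +1.59 points for CSDS replicate 1 alone. Without strand-discordant cytosines the levels were 7.90% in CSDS and 11.2% in Control. In the printed promoter stretch, 37 cytosines averaged 11.1%, 5.19% and 7.86% in CSDS against 11.8%, 13.0% and 11.1% in Control. A stretch of 29 cytosines within the gene (142968408 to 142968579) was at 20.9%, 4.78% and 4.24% in CSDS against 12.5%, 14.1% and 6.94% in Control, so that CSDS held both the highest and the lowest library.

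Tssc4, which in human cells takes part in assembling spliceosomal particles (143068416 to 143071093), was 1 of the 2 members with groups apart. Its 75 cytosines stood at 18.98%, 15.5% and 16.6% in CSDS against 21.3%, 22.3% and 21.1% in Control. Every CSDS library, replicate 1 included, was below the lowest Control library. The means were 17.0% ± 1.78 in CSDS and 21.6% ± 0.610 in Control (SD, n = 3 each), a difference of −4.54 points (quasi-binomial F test unadjusted p = 0.00112, adjusted p = 0.128). With reads summed it was −7.19 points. The share of reads on cytosines under 20% was 88.2%, 88.3% and 87.3% in CSDS against 85.9%, 82.4% and 85.3% in Control. The F test and the summed value carry this shift as well. After the mitochondrial correction the difference was −1.65 points with the groups overlapping, and CSDS replicate 1 alone was −2.59 points from the Control mean as deposited. Without strand-discordant cytosines the levels were 14.8% in CSDS and 19.5% in Control. The 33 cytosines of the printed promoter stretch averaged 14.6%, 8.36% and 11.5% in CSDS against 15.6%, 16.2% and 16.2% in Control, and the 8 cytosines of the interior 9.68%, 11.9% and 10.7% in CSDS against 19.2%, 14.6% and 15.1% in Control.

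Nap1l4, a histone chaperone at the edge of the domain that is mostly not imprinted (143513579 to 143549882), was measured at 137 cytosines, 129 of them in a low stretch at its upper end (143548431 to 143549452). The region stood at 17.3%, 10.5% and 13.1% in CSDS against 15.7%, 20.1% and 18.9% in Control. CSDS replicate 1 lay above 1 Control library. The difference was −4.60 points (quasi-binomial F test adjusted p = 0.155), −1.57 after the mitochondrial correction and −0.937 for CSDS replicate 1 alone. Without strand-discordant cytosines the levels were 12.3% in CSDS and 16.8% in Control. The 63 cytosines between the ends, where the groups did not overlap, stood at 24.6%, 18% and 21.7% in CSDS against 25.2%, 27.3% and 27.4% in Control. They mix part of the low stretch with 8 cytosines (143514929 to 143515007) at 94.8% in CSDS and 96.7% in Control. The 74 cytosines within 1 kb of the upper end overlapped, at 11.2%, 4.12% and 5.86% in CSDS against 7.66%, 14.1% and 11.7% in Control.

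**Figure D5:**
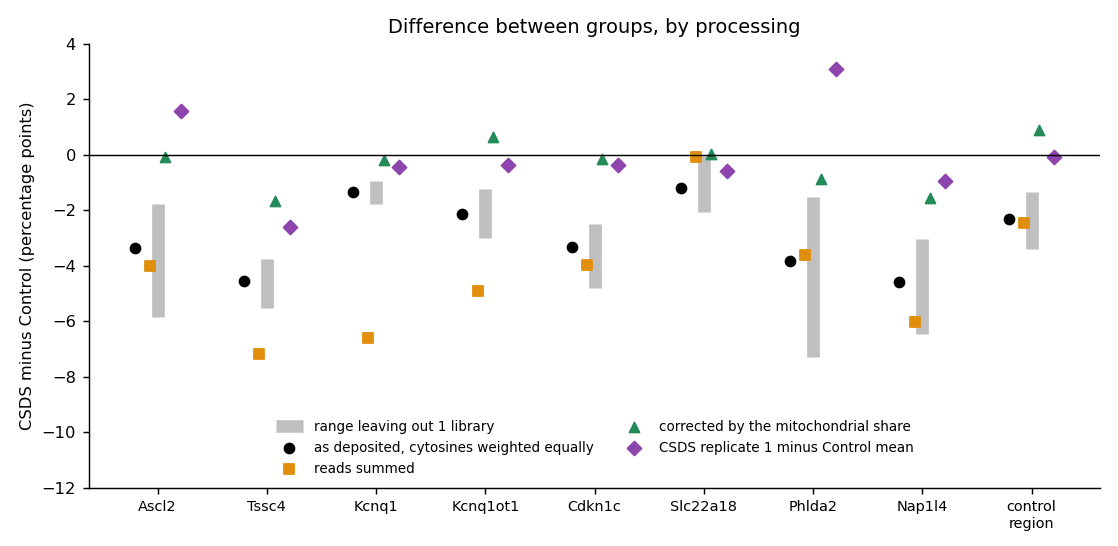
CSDS minus Control (vertical axis, percentage points) for the 8 gene regions and the control region, as deposited, with reads summed, after the mitochondrial correction, and for CSDS replicate 1 alone, with a grey bar for the range when 1 library is left out. As deposited all 9 differences lie below 0, and after the mitochondrial correction those of Kcnq1ot1, Slc22a18 and the control region lie above 0.

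At finer scale no tile or cytosine of the members was called. A tile was counted where it touched a gene with its 1 kb ends, and those starting at 143428000 and 143462000 hold only cytosines beyond these ends. Of 51 such tiles of 500 bp, 41 were lower in CSDS (80.4%, against 73.7% of 162812 tiles). Groups stood apart with CSDS below in 10 (19.6%, against 15.7%) and with CSDS above in 0 (against 1.80%), and 10 had an unadjusted p under 0.05 (19.6%, against 15.6%). Of 812 tested cytosines 578 were lower in CSDS (71.2%, against 68.6%). Groups stood apart with CSDS below in 78 (9.61%, against 10.6%) and with CSDS above in 14 (1.72%, against 1.74%), and 87 had an unadjusted p under 0.05 (10.7%, against 10.8%). In the whole series 0 of 162812 tiles (0%) and 0 of 2182877 cytosines were called, and limma called 0 of either. Without CSDS replicate 1, 2350 tiles were called, of which 1 lies in a member. That tile of Phlda2 (143502000 to 143502499, 13 cytosines) read 33.2%, 8.88% and 13.5% in CSDS against 17.9%, 29.8% and 18.2% in Control. The library left out, CSDS replicate 1, is the highest of the 6, and without it the difference was −10.8 points (quasi-binomial F test adjusted p = 0.0412). With no cap on coverage 492 cytosines were called, none of them in a member.

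The tile of smallest unadjusted p was the start of Tssc4 (143069000 to 143069499, 58 cytosines), at 11.3%, 8.35% and 8.91% in CSDS against 14.1%, 14.8% and 13.96% in Control. Its difference was −4.75 points (quasi-binomial F test unadjusted p = 0.000193, adjusted p = 0.174) and −1.59 after the mitochondrial correction. The next tiles with groups apart lay in Cdkn1c (143459500 to 143459999, −4.08 points) and Slc22a18 (143475000 to 143475499, −5.15 points). Corrected, they differed by −1.02 and −2.93 points. For these the adjusted p by the quasi-binomial F test was 0.174 and 0.213.

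Among single cytosines of smallest unadjusted p, the plus-strand cytosine of Nap1l4 at 143549138 read 33.3%, 31.3% and 37.3% in CSDS against 66.7%, 83.6% and 56.3% in Control, on 21 to 83 reads. The difference of −34.9 points had an adjusted p of 0.14 by the quasi-binomial F test. On average over the libraries this Nap1l4 CpG stood at 51.4% on the plus strand and 11.4% on the minus strand. That gap of 40.05 points is under the limit for strand-discordant cytosines, so the cytosine was kept. In promoter sequences gaps of this size were seen only inside CCGG. Whether this CpG lies in CCGG was not tested, since no promoter sequence covers it. In Cdkn1c the minus-strand cytosine at 143459680 read 0% in each CSDS library, on 40 to 48 reads, against 13.6%, 18.8% and 16.4% in Control (adjusted p = 0.156 by the same F test), and that at 143459791 differed by −11.5 points. The 3 higher in CSDS all lay in Kcnq1, at 143165746 (+14.7 points), 143340785 (+16.4) and 143412664 (+5.84). The first read 100%, 94.96% and 100% in CSDS against 79.1%, 78.7% and 92.98% in Control. CSDS replicate 1 stood with the other CSDS libraries at all 6 of these cytosines, as their selection for groups that do not overlap requires.

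Of 14 further genes of the distal chromosome 7 cluster, 13 had cytosines (Ins2 had none). Lower in CSDS were 10 of 13 (against 89.3% of all gene regions) and higher 3, with a median difference of −1.56 points. None was called and 6 of 13 had an unadjusted p under 0.05 (against 30.7%). Groups stood apart with CSDS below at 3 of 13 (against 31.0%), which are the tetraspanin gene Cd81, the cysteinyl-tRNA synthetase gene Cars and the decoy receptor gene Tnfrsf22. Tnfrsf22 differed most, at 6.90%, 5.33% and 4.61% in CSDS against 12.8%, 13.5% and 13.3% in Control over 24 cytosines. Its difference was −7.58 points (quasi-binomial F test adjusted p = 0.128), and −4.57 after the mitochondrial correction, which took its CSDS mean to −0.231%, below 0. Cd81 differed by −6.08 points (−3.31 corrected), Cars by −4.44 (−2.26 corrected) and the growth factor gene Igf2 by −3.40 (−0.241 corrected). After that correction the groups stood apart at Cd81 and Tnfrsf22 with CSDS below (2 of 13, against 9.14%) and at Tnfrsf23, a related receptor gene named after its values were seen, with CSDS above (1 of 13, against 2.98%).

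The Kcnq1ot1 control region was set beside those of other imprinted domains. The control region of Airn, another noncoding RNA that silences genes on the paternal copy (chromosome 17, covered from 12741599 to 12742421, 36 cytosines), stood at 19.2%, 13.8% and 10.5% in CSDS against 16.1%, 22.7% and 17.6% in Control. The groups overlapped, with a difference of −4.30 points, and −1.25 after the mitochondrial correction. That of Snrpn (23 cytosines) stood at 20.8%, 15.2% and 14.8% in CSDS against 25.7%, 27.1% and 32.6% in Control, a difference of −11.5 points (−9.32 corrected) with the groups apart. It was already known when this comparison was chosen. The Kcnq1ot1 level minus the mean of both was −3.33, −0.287 and −0.135 points in CSDS against −3.71, −8.07 and −8.78 points in Control. This contrast was higher in CSDS by 5.60 points, and by 6.20 after the mitochondrial correction, and is a description only, since Snrpn is part of it. Against Airn alone, compared after the data were seen, the groups overlapped. Kcnq1ot1 minus Airn was −2.53, 0.436 and 2.02 points in CSDS against 1.08, −5.91 and −1.26 points in Control, a difference of 2.00 points (exact permutation p = 0.6). The paternally methylated H19 control region of the neighbouring domain, where 4 cytosines carried 149 to 289 reads, stood at 94.8%, 95.7% and 94.5% in CSDS against 98.5%, 96.5% and 98.5% in Control. The H19 difference was −2.86 points (exact permutation p = 0.1) and −2.96 after the mitochondrial correction. In each of the 6 libraries the H19 region, at 94.5% or more, stood above the regions of Kcnq1ot1, Airn and Snrpn, at 32.6% or less. Male germ cells are known for methylated paternal and unmethylated maternal control regions.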

How the data were processed

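DNA from male germ cells was purified with a DNeasy kit and built into libraries with a Zymo-Seq RRBS kit, per the labels' protocols. Trim Galore 0.5.0, Bismark 0.20.0 and GRCm38 are named, without their settings, per the submitters' processing notes. The deposited tables give, per the file headers, each CpG cytosine, its coverage (a read count) and what percent of those reads showed C or T. Percent times the deposited count was whole at every cytosine to within 1e-06. No cytosine under a coverage of 10 is listed. Duplicate handling and conversion rates are not given in the sources used here.

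Cytosines listed in all 6 libraries were used (2210988 of 3348459), leaving out 4668 whose coverage passed the 99.9th percentile in some library, none of them in the members. Levels are means over cytosines, each weighted equally. Genes, with 1 kb at each end, came from the RefSeq table of GRCm38.p6. Gene regions and 500 bp tiles needed at least 3 cytosines. Summed reads entered a quasi-binomial logistic fit on group. Its dispersion was moderated as limma's squeezeVar does and never set under 1. An F test followed, with Benjamini-Hochberg adjustment over all features of a kind. A call needed an adjusted p below 0.05 and a difference of 10 points. For control regions, whose bounds are approximate, a two-sided exact permutation test was used. The mitochondrial correction subtracts a library's mitochondrial share from the level and rescales the remainder to the range left, which lets low levels turn negative. For the F test the corrected methylated reads of each cytosine were instead kept from falling below 0. Fits used Python 3.11.15, scipy 1.17.1, R 4.3.3 and limma 3.58.1, and were tested on simulated data.

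The named tiles and cytosines are up to 3 each way of smallest unadjusted p whose groups do not overlap, and the named cluster genes are the 4 of largest difference. The members and lists were chosen with earlier results of these data known. Alternatives were a coverage minimum of 20, summed reads, no coverage cap, limma, the mitochondrial correction, a replicate block, wider bounds, genes without their ends, Kcnq1 without Kcnq1ot1, and each library left out. Leaving out strand-discordant cytosines, taking CSDS replicate 1 alone and using Airn or Snrpn as the only comparator were added after the data were seen. The labels name no molecular identifiers, and repeated reads of 1 molecule may make read counts look more precise than they are.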

Additional observations from a re-analysis of the deposited data

How the results depend on the processing

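Of the differences in the 8 gene regions and the control region, those of Kcnq1, Tssc4 and Nap1l4 stayed negative under every alternative tried. After the mitochondrial correction the Kcnq1ot1 control region turned to +0.915 points, the Kcnq1ot1 gene region to +0.650 and Slc22a18 to +0.0311. With that correction and without strand-discordant cytosines they were +1.01, +0.722 and +0.113, and Cdkn1c, Phlda2 and Ascl2 were at +0.0917, +1.05 and +0.161. With CSDS replicate 1 as the only CSDS library, Phlda2 stood at +3.09 points and Ascl2 at +1.59. The cause was not tested. The alternatives without strand-discordant cytosines and with CSDS replicate 1 alone, and the contrast with a single other region, were chosen after seeing the data.

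Leaving out 1 library at a time, the control region ranged from −3.41 to −1.33 points, Kcnq1ot1 from −2.99 to −1.23, Kcnq1 from −1.78 to −0.931, Cdkn1c from −4.81 to −2.50, Phlda2 from −7.28 to −1.51, Slc22a18 from −2.05 to −0.0415, Ascl2 from −5.84 to −1.77, Tssc4 from −5.51 to −3.76 and Nap1l4 from −6.44 to −3.03. The H19 control region ranged from −3.54 to −2.52 and the contrast with Airn and Snrpn from 4.64 to 7.17 points. That contrast was 2.00 points against Airn alone and 9.20 against Snrpn alone. Called gene regions ranged from 0 to 150 and called tiles from 0 to 2350, both highest without CSDS replicate 1. Called cytosines stayed at 0. Called tiles came to 4 after the mitochondrial correction. Called cytosines came to 3 at a coverage minimum of 20, to 492 with no cap on coverage and to 1 without strand-discordant cytosines. Of all these, 1 tile lay in a member, in Phlda2 without CSDS replicate 1.

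With the replicate number as a replicate block the control region differed by −2.30 points, and 0 gene regions, tiles and cytosines were called. Same-numbered libraries deviated together with correlations of −0.0839, −0.0953 and −0.00133, against −0.0165 to 0.0962 for libraries of unlike number. Such values cannot tell whether same-numbered samples were handled together, which the labels do not say. Coverage of 11 to 134 reads per cytosine of the control region limits what single cytosines can show.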
